A study of Mus musculus with 40 samples.

Results

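The livers of wild-type female mice held at 40% calorie restriction (CR) were compared with those of wild-type females fed ad libitum (AL). These are 10 of the 40 livers of the series, 5 on each diet, picked out by their diet, genotype and sex labels. The mice were C57BL/6NJ, liver samples went into RNAlater, and total RNA was sequenced from KAPA Hyperprep libraries. The treatment protocol has the mice put on their diets at weaning (day 30) for another 30 days and sacrificed at 2 months of age, whereas the extraction protocol states an age of 28 to 34 days. The other 30 livers are 5 wild-type CR males, 5 wild-type AL males, and 20 livers of d3 mice of both sexes and diets. In d3 mice both copies of Ghr, the gene of the growth hormone receptor, lack exon 3, and the founding d3 males were bred to C57BL/6NJ eggs by in vitro fertilisation. The labels record neither a batch nor the day or hour of collection. Each library is 1 mouse, so the spread is between mice.

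Calorie restriction is a reduced intake of a complete diet. Restricted rodents eat their ration soon after it is given and fast until the next one, and meal time is a known timing signal for the clock of the liver. In that clock ARNTL (also called BMAL1) and CLOCK or NPAS2 switch on the Per, Cry and Nr1d genes through E-box elements, and the PER, CRY and REV-ERB proteins made from them then repress ARNTL and CLOCK. The liver is also a main site of fatty acid, cholesterol and glycogen synthesis, and in mice its growth hormone signal sets many genes at different levels in females and males.

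The data show a liver in which many clock genes changed by large amounts, 8 of 13 lipogenic and 11 of 26 cholesterol genes were higher, and 13 of 21 major urinary protein and 17 of 40 proteasome genes were lower in CR females. Over all genes tested 4.56% were higher and 7.11% lower. The lipogenic, cholesterol and proteasome counts were smaller in some fits that left livers out, as given below. Dbp, a clock output gene, was 131 times higher in CR livers, and Arntl, the clock activator, was 13.7 times lower. Fasn, the fatty acid synthase, was 3.46 times higher in CR livers. Values are normalised counts, that is reads divided by a factor for each library, and each log2 change is the mean log2(value + 1) of CR livers minus that of AL livers.

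Reads per library came to between 34165111 and 39672490 in CR livers and between 33109602 and 41527330 in AL livers. Normalised counts summed over all genes came to between 26585217 and 34964089 in CR livers and between 35765594 and 39581340 in AL livers. The diets did not overlap in this sum, and its part in the gene results was not tested. Hepatocyte marker genes had a mean log2 level of 13.407 to 14.339 in CR livers and 14.41 to 14.547 in AL livers, so the diets did not overlap in it. Of its 13 genes tested 3 fell, among them Apoa1. Skeletal muscle marker genes ran from 2.112 to 14.252 in CR livers and from 2.043 to 12.143 in AL livers, and were at a mean log2 level of at least 8 in 4 livers, CR livers 3 and 4 and AL livers 2 and 5, called the muscle-rich livers here. That level was reached by 17 of all 40 livers, and fits without the muscle-rich livers leave out all 17. Adipocyte markers stood at 8.281 in CR liver 3 and at 6.238 in AL liver 5. The first principal component, with 50.7% of the variance, placed CR liver 3 at 138.86 and AL liver 5 at 63.06 at its far end. The second, with 16.2%, placed all CR livers between 16.73 and 49.2 and all AL livers between -43.5 and -17.1. No skeletal muscle, adipocyte, exocrine pancreas, lymphocyte and neutrophil or erythroid marker passed the test. None of these markers had an unadjusted p under 0.05 in limma and none passed in edgeR or DESeq2. Markers of cholangiocytes, the cells that line bile ducts, had a median log2 change of 0.97 and a mean log2 level of 6.176 to 7.983 in CR livers and 5.696 to 6.602 in AL livers. None of their 8 genes passed in limma or in edgeR, 4 had an unadjusted p under 0.05, and 2 passed in DESeq2. Without CR liver 3 their median was 1.29 and 2 of the 8 rose in limma.

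Of 13776 genes tested with limma, 1608 (11.7%) passed an adjusted p of 0.05. In CR livers 628 genes (4.56%) rose and 980 (7.11%) fell. These shares over all genes are the ones to set beside the count of each gene list below. At least 2-fold changes were found in 222 genes that rose (1.61%) and 187 that fell (1.36%). In 1328 genes (9.64%) the 5 CR and 5 AL livers did not overlap, and 979 of these also passed the test. The median log2 change over all genes tested was 0.02. Without the 4 muscle-rich livers, which leaves 3 livers on each diet, 557 genes passed. With the muscle level as a covariate 1966 passed, among them 1607 of the 1608, all in the same direction. The number of calls thus depended on how these livers were treated. In the fit without them, fewer livers and less muscle content cannot be told apart as sources of a lost call.

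Clock genes were among the genes with the largest increases and the largest decreases. Of the 5 activators of the clock 4 fell, with a median log2 change of -1.22. Of its 10 repressors 9 rose and 1 fell, with a median of 2.23, and of 10 output genes 6 rose and 1 fell, with a median of 0.75. All 10 calls among the repressors held without the muscle-rich livers, and in each of the 10 fits that left out 1 liver. The windows before the start of 3 of these genes are shown because they carry the elements through which the clock proteins are known to act. RefSeq start sites on GRCm38.p6 gave a window of 250 bases for 21 of the 25 clock genes tested. The windows were searched on both strands for the E-box CACGTG, the D-box TTATGTAA and the REV-ERB and ROR element TAGGTCA. None of these motifs contains another, and the E-box reads the same on both strands. Capitals mark the matches, each window is given 5′ to 3′ on the strand of its gene, and it ends at the base before the start site. The Ciart window is chr3:95882229-95882478 on the minus strand, with 3 E-boxes. The Cry1 window is chr10:85185055-85185304 on the minus strand, with 1 E-box. The Per3 window is chr4:151044666-151044915 on the minus strand, with 2 D-boxes. The GENCODE annotation starts Ciart and Cry1 earlier than RefSeq does, so 23 bases of the Ciart window and 10 bases of the Cry1 window at their 3′ ends lie inside the annotated gene, and 0 of the Per3 window.
Ciart: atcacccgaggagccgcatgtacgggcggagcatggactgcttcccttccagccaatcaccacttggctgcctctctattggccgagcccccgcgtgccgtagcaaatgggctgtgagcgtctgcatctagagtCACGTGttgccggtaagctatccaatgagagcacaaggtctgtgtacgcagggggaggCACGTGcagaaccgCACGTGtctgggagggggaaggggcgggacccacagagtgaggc
Cry1: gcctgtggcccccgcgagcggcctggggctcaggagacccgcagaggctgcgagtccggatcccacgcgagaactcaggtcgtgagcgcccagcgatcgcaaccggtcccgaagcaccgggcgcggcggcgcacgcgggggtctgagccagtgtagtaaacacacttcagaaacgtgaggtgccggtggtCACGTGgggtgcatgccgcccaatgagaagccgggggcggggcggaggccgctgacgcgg
Per3: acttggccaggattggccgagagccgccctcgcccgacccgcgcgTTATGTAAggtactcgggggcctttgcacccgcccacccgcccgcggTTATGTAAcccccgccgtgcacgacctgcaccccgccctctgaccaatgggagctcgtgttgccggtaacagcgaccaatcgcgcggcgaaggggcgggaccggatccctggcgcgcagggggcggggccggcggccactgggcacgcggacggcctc
Some of the 21 genes have several start sites, which gave 27 windows. The E-box was found in 7 of the 27 (25.9%), those of Bhlhe41, Ciart, Cry1, Per1, Tef and Tspan4, and in 6.02% of the 32851 windows of the same length in the whole table. The D-box was found in 1 of the 27 (3.7%), that of Per3, and in 0.819% of all windows. The REV-ERB and ROR element was found in 1 of the 27, that of Nfil3, and in 2.23% of all windows. The Nfil3 match lies 12 bases before the RefSeq start and inside the gene as GENCODE annotates it. Both windows of Tef held an E-box. These windows and the Per1 window with the E-box lie wholly inside the genes as GENCODE annotates them. A match describes these letters only. E-box windows belonged both to higher genes such as Ciart and to the lower gene Cry1.

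Among the activators, Arntl (chromosome 7, 113207465 to 113314126 on the plus strand, GRCm38) had 36.9, 45.9, 144, 97.9 and 92.3 normalised counts in the 5 CR livers, against 1175, 1061, 1018, 1316 and 1137 in the 5 AL livers. The lowest AL liver was several times above the highest CR liver, and Arntl fell (log2 change -3.92, SE 0.36, adjusted p = 6.57e-10). Npas2, a relative of Clock that also pairs with ARNTL, had 7.72, 9.77, 19.7, 19.9 and 26.5 normalised counts in the 5 CR livers, against 372, 648, 416, 628 and 292 in the 5 AL livers. Npas2 fell (log2 change -4.80, SE 0.46, adjusted p = 2.53e-09), with no overlap between the diets. Clock averaged 947 ± 189 normalised counts in CR livers and 2172 ± 156 in AL livers (SD, n = 5 each) and also fell (log2 change -1.22, SE 0.12, adjusted p = 3.42e-09). Rora, a receptor that switches Arntl on, averaged 2728 ± 241 normalised counts in CR livers and 3612 ± 334 in AL livers (SD, n = 5 each) and fell (log2 change -0.40, SE 0.12, adjusted p = 0.0184). Its call was lost without AL liver 5 (adjusted p = 0.0521) or CR liver 3 (adjusted p = 0.0626) and without the muscle-rich livers (adjusted p = 0.0786).

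Per3, a period gene, had 3302, 3331, 3036, 2534 and 2134 normalised counts in the 5 CR livers, against 122, 91.7, 60.1, 119 and 122 in the 5 AL livers. Per3 rose 27.9 times on the means (log2 change 4.82, SE 0.25, adjusted p = 4.01e-16), and every CR liver was above every AL liver. Per2 averaged 1579 ± 546 normalised counts in CR livers and 299 ± 111 in AL livers (SD, n = 5 each) and rose (log2 change 2.41, SE 0.27, adjusted p = 8.55e-08). Per1 averaged 2366 ± 603 normalised counts in CR livers and 896 ± 421 in AL livers (SD, n = 5 each) and rose as well (log2 change 1.47, SE 0.33, adjusted p = 0.00259), although the diets overlapped. Nr1d1, which encodes REV-ERB alpha, a repressor of Arntl, had 5287, 5277, 7127, 6808 and 7402 normalised counts in the 5 CR livers, against 520.2, 616, 1013, 1432 and 594 in the 5 AL livers. Nr1d1 rose (log2 change 3.03, SE 0.42, adjusted p = 5.48e-06), as did its paralog Nr1d2 (log2 change 2.06, SE 0.19, adjusted p = 6.57e-10). Ciart, a repressor of the ARNTL and CLOCK complex with 3 E-boxes in the window above, averaged 869 ± 396 normalised counts in CR livers and 51.3 ± 21.4 in AL livers (SD, n = 5 each) and rose (log2 change 4.05, SE 0.40, adjusted p = 3.75e-09). Bhlhe41 and Bhlhe40, repressors that bind E-boxes, rose by 4.40 (SE 0.51, adjusted p = 1.6e-07) and 2.04 (SE 0.26, adjusted p = 1.32e-06) on the log2 scale. The cryptochromes moved in opposite directions. Cry1 had 213, 303, 183, 263 and 218 normalised counts in the 5 CR livers, against 887, 619, 614, 909 and 867 in the 5 AL livers, and it fell (log2 change -1.72, SE 0.22, adjusted p = 1.06e-06) with no overlap between the diets. Cry2 averaged 1813 ± 188 normalised counts in CR livers and 976 ± 224 in AL livers (SD, n = 5 each) and rose (log2 change 0.91, SE 0.15, adjusted p = 4.4e-05).

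Among the output genes, Dbp (chromosome 7, 45705088 to 45710203 on the plus strand, GRCm38), a D-box activator, had 7977, 7344, 5816, 5537 and 5465 normalised counts in the 5 CR livers, against 80.8, 30.6, 37.1, 52.2 and 45.4 in the 5 AL livers. This was the largest increase among the named genes (log2 change 7.06, SE 0.50, adjusted p = 3.64e-12). Its family member Tef averaged 4114 ± 795 normalised counts in CR livers and 763 ± 221 in AL livers (SD, n = 5 each) and rose (log2 change 2.46, SE 0.22, adjusted p = 5.68e-10). Hlf, the remaining gene of that family, averaged 2504 ± 393 normalised counts in CR livers and 1922 ± 152 in AL livers (SD, n = 5 each) and did not pass the test (adjusted p = 0.0951), but it did without the muscle-rich livers (adjusted p = 0.0374). Nfil3, the repressor at the same D-box elements, had 184, 174, 262, 303 and 298 normalised counts in the 5 CR livers, against 1743, 1463, 1393, 1952 and 1719.8 in the 5 AL livers. Nfil3 fell (log2 change -2.78, SE 0.22, adjusted p = 3.72e-11), and the lowest AL liver was more than 4 times the highest CR liver. Usp2, a ubiquitin protease, averaged 2561 ± 766 normalised counts in CR livers and 395 ± 318 in AL livers (SD, n = 5 each), and Wee1, a kinase that holds back mitosis, averaged 383 ± 151 normalised counts in CR livers and 65.01 ± 23.8 in AL livers (SD, n = 5 each). Usp2 (log2 change 3.01, SE 0.37, adjusted p = 6.46e-07) and Wee1 (log2 change 2.53, SE 0.28, adjusted p = 7.82e-08) both rose. The hour at which each liver was taken is not in the labels, so a change in level and a shift in clock phase cannot be told apart.

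**Figure D1:**
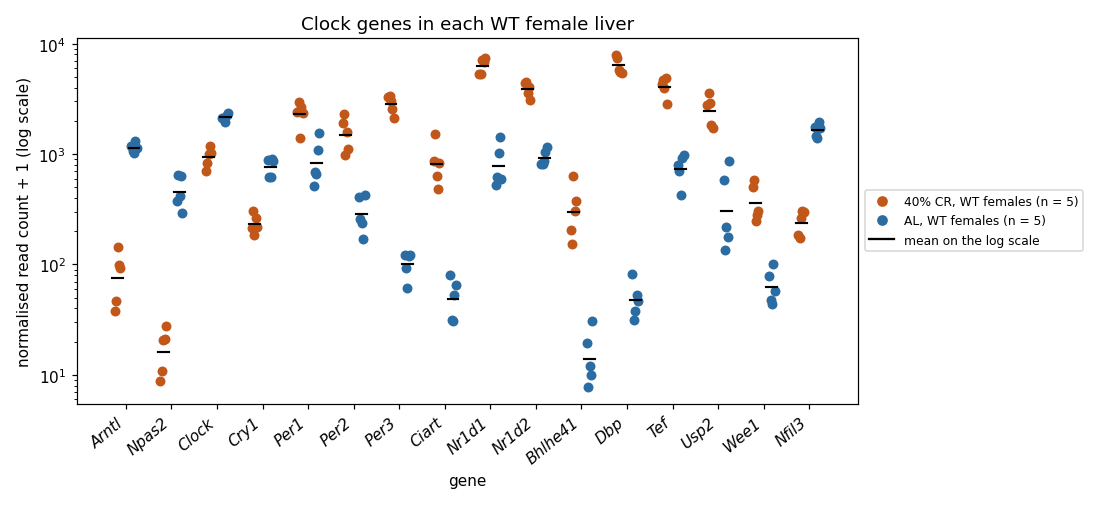
Normalised read count plus 1, on a log axis, of 16 clock genes, with 1 point a liver, 5 CR livers left and 5 AL livers right for each gene, and black bars at the means on the log scale. Arntl, Npas2, Clock, Cry1 and Nfil3 sit lower in CR livers and Dbp, Per3, Ciart and Nr1d1 higher, with no overlap between the diets in these genes.

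**Figure D2:**
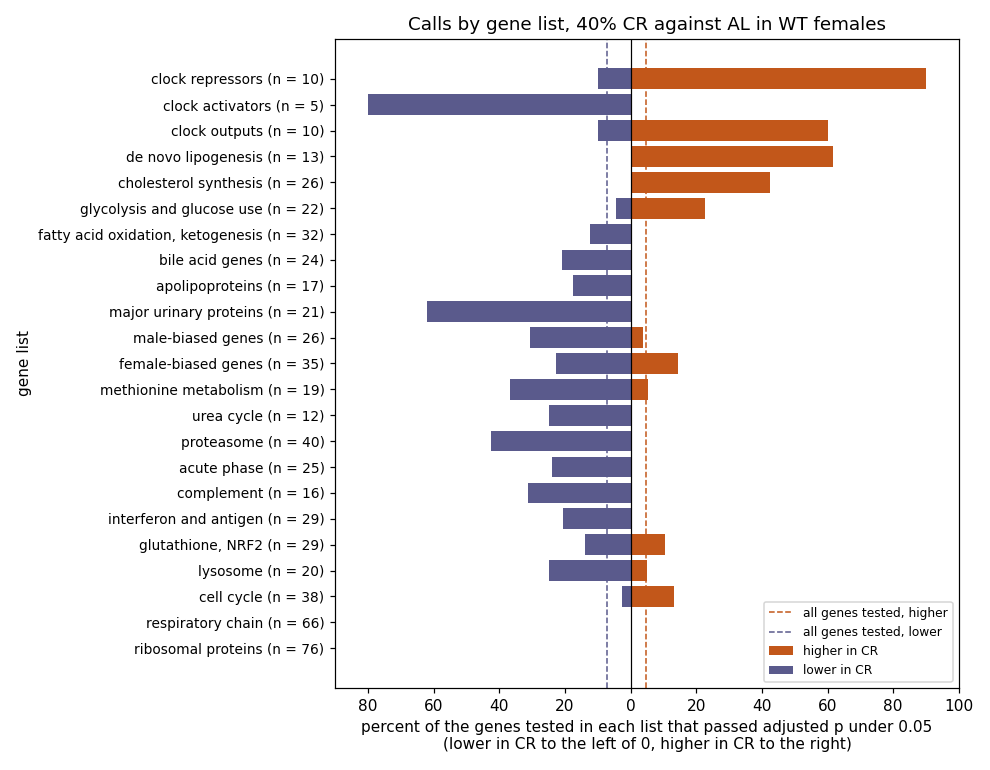
Percent of the genes tested in each of 23 gene lists that passed an adjusted p of 0.05 in limma, with genes lower in CR left of 0, genes higher in CR right of 0, and dashed lines at 7.11% lower and 4.56% higher, the shares over all genes tested. The longest bars are those of the clock repressors on the right, with 9 of 10, and of the clock activators on the left, with 4 of 5.

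Many genes of de novo lipogenesis, the synthesis of fatty acids, were higher in CR livers. Of 13 genes of de novo lipogenesis tested 8 rose, with a median log2 change of 0.74 against 0.02 over all genes. Fasn (chromosome 11, 120805846 to 120824547 on the minus strand, GRCm38) had 22295, 32294, 33139, 22818 and 18088 normalised counts in the 5 CR livers, against 5442, 8722, 9859, 7313 and 5833 in the 5 AL livers. Fasn rose (log2 change 1.79, SE 0.42, adjusted p = 0.00473), and each CR liver exceeded each AL liver. Thrsp, a lipogenic regulator also called Spot 14, had 11449, 15092, 4305, 5427 and 5051 normalised counts in the 5 CR livers, against 775, 1261, 2195, 1375 and 895 in the 5 AL livers. Thrsp rose (log2 change 2.58, SE 0.55, adjusted p = 0.00174), with a spread among CR livers larger than among AL livers. Acly, which makes the acetyl-CoA used for lipid synthesis, averaged 8271 ± 2174 normalised counts in CR livers and 3850.4 ± 1116 in AL livers (SD, n = 5 each) and rose (log2 change 1.11, SE 0.28, adjusted p = 0.00865), and Pklr, the liver pyruvate kinase, averaged 8051 ± 1801 normalised counts in CR livers and 3634 ± 1159 in AL livers (SD, n = 5 each) and rose (log2 change 1.18, SE 0.33, adjusted p = 0.0149). Elovl6, a fatty acid elongase, rose too (log2 change 1.11, SE 0.27, adjusted p = 0.00613), though not without the muscle-rich livers (adjusted p = 0.0567). Srebf1, the transcription factor of lipogenic genes, had 10423, 8217, 8754, 8358 and 8682 normalised counts in the 5 CR livers, against 988, 6169.8, 4755, 4861 and 4822 in the 5 AL livers. AL liver 1 was far below the other AL livers. Srebf1 rose with it in the fit (log2 change 1.26, SE 0.40, adjusted p = 0.0346) but not without it (adjusted p = 0.162), nor without CR liver 1, 3, 4 or 5 (adjusted p = 0.071, 0.0645, 0.0567 and 0.054). Without AL liver 1 the list had 5 genes that rose and Pklr missed the threshold (adjusted p = 0.0567). The list also had 5 that rose without CR liver 4, and 4 without the muscle-rich livers. Of 6 genes of fatty acid elongation and desaturation 1 rose and 0 fell, with a median log2 change of -0.40. Their changes ran from -2.51 to 0.64, and 4 of the 6 had an unadjusted p under 0.05 in limma. With 1 liver left out, 0 to 1 of them rose and 0 to 1 fell.

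Cholesterol genes moved the same way. Of 26 genes of cholesterol synthesis and uptake 11 rose, with a median log2 change of 1.19. Insig1, which holds the sterol sensor in the endoplasmic reticulum, had 12079, 15533, 10053, 16128 and 12391 normalised counts in the 5 CR livers, against 1357, 5897, 7229, 8164 and 4239 in the 5 AL livers. Insig1 rose (log2 change 1.51, SE 0.41, adjusted p = 0.0126), and AL liver 1 was the lowest of all 10 livers. Stard4, a cholesterol carrier, had 4648, 5562, 3426, 6659 and 4491 normalised counts in the 5 CR livers, against 649, 2638, 2963, 2765 and 1816 in the 5 AL livers. Stard4 rose (log2 change 1.34, SE 0.36, adjusted p = 0.0128), with no overlap between the diets. The count rested in part on AL liver 1. Without that liver 4 of the 26 rose and the median was 0.75, and Insig1 (adjusted p = 0.0637) and Stard4 (adjusted p = 0.0645) missed the threshold. In the fit without the muscle-rich livers 2 of the 26 rose, and adjusted p was 0.121 for Insig1 and 0.137 for Stard4.

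A few genes of triglyceride storage and of fatty acid oxidation fell. Of 22 genes of triglyceride synthesis and lipolysis 4 fell (18.2%, against 7.11% over all genes), with a median log2 change of -0.09. Plin5, a lipid droplet coat protein that links droplets to mitochondria, had 809, 1109.5, 1656, 1057 and 1004 normalised counts in the 5 CR livers, against 7741, 2304, 2756, 2306 and 2647 in the 5 AL livers. AL liver 1 was the highest, and the 5 CR livers lay below the 5 AL livers (log2 change -1.51, SE 0.27, adjusted p = 0.00017). Agpat2, which makes phosphatidic acid, averaged 4311 ± 582 normalised counts in CR livers and 8773 ± 1668 in AL livers (SD, n = 5 each) and fell (log2 change -1.01, SE 0.16, adjusted p = 3.43e-05). Its paralog Agpat3 also fell (log2 change -0.49, SE 0.12, adjusted p = 0.00553), but not without the muscle-rich livers (adjusted p = 0.0533). Of 32 genes of PPARA-driven fatty acid oxidation and ketogenesis 4 fell (12.5%, against 7.11% over all genes), with a median of -0.29, and 2 fell without CR liver 4, AL liver 2 or AL liver 3. Cpt2, which releases acyl groups inside mitochondria, had 3340.5, 4111, 3641, 3497 and 3736 normalised counts in the 5 CR livers, against 8895, 7914, 7586, 5715 and 5156 in the 5 AL livers. Cpt2 fell with no overlap (log2 change -0.92, SE 0.16, adjusted p = 0.000174), as did Slc25a20, the carrier that brings acylcarnitine in, at 3897 ± 274 normalised counts in CR livers and 5852 ± 992 in AL livers (SD, n = 5 each; log2 change -0.57, SE 0.15, adjusted p = 0.00986). Fewer hepatocytes in a piece of liver, less RNA per hepatocyte and lower expression of the markers themselves cannot be told apart in these bulk samples. The hepatocyte marker level was lower in every CR liver than in every AL liver. Its part in the lower genes of these groups was not tested.

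**Figure D3:**
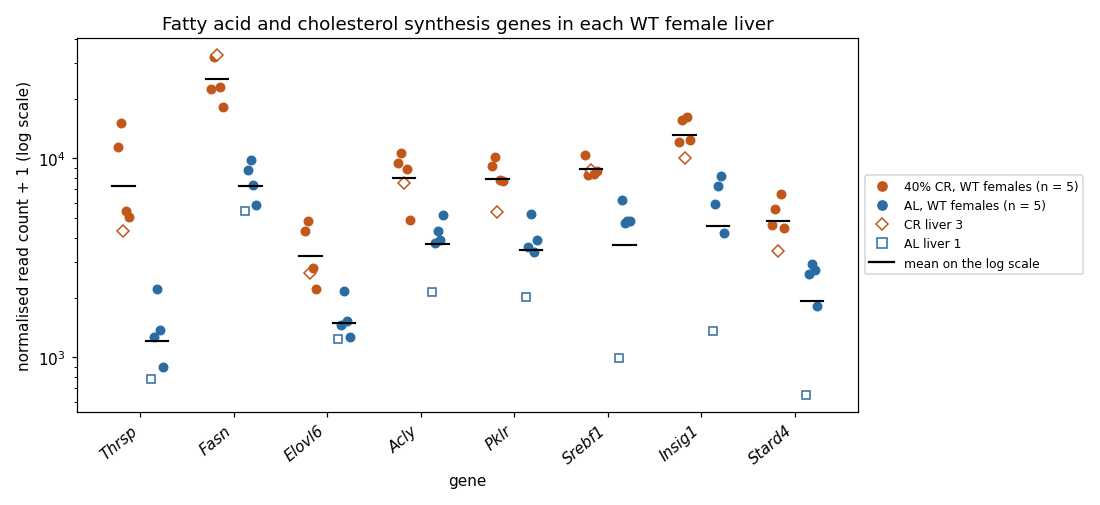
Normalised read count plus 1, on a log axis, of 8 genes of fatty acid and cholesterol metabolism, with 1 point a liver, 5 CR livers left and 5 AL livers right for each gene, and black bars at the means on the log scale. Open symbols mark CR liver 3 and AL liver 1, and AL liver 1 is the lowest AL point for each of the 8 genes.

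Of 17 apolipoprotein and lipoprotein assembly genes 3 fell (17.6%, against 7.11% over all genes), with a median of -0.38. Apoa1, the main protein of high-density lipoprotein, had 157832, 189386, 95314, 136273 and 202548 normalised counts in the 5 CR livers, against 362931, 321292, 460679, 277938 and 244739 in the 5 AL livers, and it fell (log2 change -1.11, SE 0.26, adjusted p = 0.00363). Pltp, a phospholipid transfer protein, averaged 760.1 ± 243 normalised counts in CR livers and 2288 ± 1165 in AL livers (SD, n = 5 each) and fell (log2 change -1.48, SE 0.35, adjusted p = 0.00442). Mttp, which loads lipid onto apolipoprotein B, also fell (log2 change -0.72, SE 0.18, adjusted p = 0.00838). Adjusted p without the muscle-rich livers was 0.0889 for Apoa1, 0.0586 for Pltp and 0.0544 for Mttp. Of 17 hepatokines, hormones that the liver secretes, 1 rose and 5 fell, with a median of -0.57. Enho, which encodes adropin, averaged 334 ± 97.1 normalised counts in CR livers and 935 ± 259 in AL livers (SD, n = 5 each) and fell (log2 change -1.48, SE 0.36, adjusted p = 0.00635). Fgl1, a fibrinogen-like protein, averaged 7116 ± 1472 normalised counts in CR livers and 19132 ± 2998 in AL livers (SD, n = 5 each) and fell (log2 change -1.44, SE 0.39, adjusted p = 0.0142). Tsku, which encodes tsukushi, fell (log2 change -1.57, SE 0.43, adjusted p = 0.0147) with overlapping diets, and missed the threshold without CR liver 3 (adjusted p = 0.0784). Without CR liver 3 the hepatokines had 2 that fell, and without AL liver 3 they had 3. Adjusted p without the muscle-rich livers was 0.174 for Enho, 0.3 for Fgl1 and 0.6 for Tsku.

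Genes of glucose use and glycogen changed in a few members. Of 22 genes of glycolysis and glucose use 5 rose and 1 fell, with a median log2 change of 0.34. Without AL liver 1 only 2 of the 22 rose, and without CR liver 2, CR liver 4, AL liver 2 or AL liver 3 it was 3. Pdk1, a kinase that shuts off pyruvate dehydrogenase, averaged 4242 ± 295 normalised counts in CR livers and 2891 ± 142 in AL livers (SD, n = 5 each) and rose (log2 change 0.55, SE 0.13, adjusted p = 0.00389). Slc2a1, a glucose transporter that hepatocytes hold at low levels, averaged 289 ± 85.6 normalised counts in CR livers and 539.6 ± 172 in AL livers (SD, n = 5 each) and fell (log2 change -0.89, SE 0.21, adjusted p = 0.00418). Ldha, the lactate dehydrogenase subunit A, averaged 15732 ± 1223 normalised counts in CR livers and 30735 ± 8073 in AL livers (SD, n = 5 each) and fell with no overlap (log2 change -0.93, SE 0.17, adjusted p = 0.000335). Of 15 glycogen genes 1 rose (6.67%) and 1 fell (6.67%), shares near those over all genes. Gys2, the liver glycogen synthase, had 12636, 10922, 5352, 9785 and 8308 normalised counts in the 5 CR livers, against 5661, 3855, 4253, 3803 and 3927 in the 5 AL livers. Gys2 rose (log2 change 1.09, SE 0.21, adjusted p = 0.000629), with AL liver 1 the highest of the AL livers and inside the CR range. Ppp1r3b, which brings a phosphatase to glycogen synthase, had 3486, 6060.4, 2119.5, 4736 and 3116 normalised counts in the 5 CR livers, against 5218, 14443, 12930.3, 9012 and 18553 in the 5 AL livers. Ppp1r3b fell (log2 change -1.59, SE 0.32, adjusted p = 0.000967), but not without the muscle-rich livers (adjusted p = 0.0803). Glucose production had 1 call among 14 genes (7.14%, near the 7.11% lower over all genes), which was Ldha. G6pc, which releases glucose from glucose 6-phosphate, had 10028, 11698, 3137, 14466 and 11359 normalised counts in the 5 CR livers, against 32269.5, 19422, 18183, 17151 and 17248 in the 5 AL livers. Its diets did not overlap, and it did not pass the test (log2 change -1.16, SE 0.41, adjusted p = 0.0619). Of 28 genes of insulin signalling 2 rose (7.14%) and 2 fell (7.14%), also near the shares over all genes, among them Trib3, a pseudokinase that binds AKT (log2 change 1.33, SE 0.35, adjusted p = 0.0103), and Rptor, the raptor subunit of mTORC1 (log2 change -0.33, SE 0.085, adjusted p = 0.00861). Neither Trib3 (adjusted p = 0.215) nor Rptor (adjusted p = 0.0939) passed without the muscle-rich livers.

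Growth hormone acts on the liver through its receptor and STAT5, and drives Igf1. Ghr (chromosome 15, 3317760 to 3583492 on the minus strand, GRCm38) had 12379.7, 13642, 8956, 13180.2 and 12244 normalised counts in the 5 CR livers, against 7040.2, 14071, 12904, 13999 and 15699 in the 5 AL livers. The diets overlapped, and no difference was detected (log2 change -0.041, SE 0.21, adjusted p = 0.931). A gene-level value does not show whether exon 3 is present. Igf1, the insulin-like growth factor that liver releases into blood, had 10486, 11426, 9347, 13354 and 11714 normalised counts in the 5 CR livers, against 8788, 21513, 18509, 13798 and 16814 in the 5 AL livers. It did not pass the test (log2 change -0.44, SE 0.20, adjusted p = 0.153), although it did without AL liver 1, the lowest of the AL livers (adjusted p = 0.0279). Of 19 genes of the axis 1 rose (5.26%) and 1 fell (5.26%), near the shares over all genes. Cux2, a female-biased repressor that growth hormone controls in mouse liver, averaged 2081 ± 377 normalised counts in CR livers and 824 ± 539.8 in AL livers (SD, n = 5 each). Cux2 rose (log2 change 1.51, SE 0.45, adjusted p = 0.024), but not without AL liver 3, 4 or 5 (adjusted p = 0.0708, 0.0588 and 0.0507).

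Genes that growth hormone sets differently in the sexes had large changes in both directions. Of 35 female-biased liver genes 5 rose and 8 fell, with a median log2 change of 0.30. With 1 liver left out 2 to 5 of them rose, fewest without AL liver 3, and 4 to 10 fell, fewest without CR liver 4. Their median was 0.09 without AL liver 1 and 0.53 without CR liver 3. Of 26 male-biased genes 1 rose and 8 fell, with a median of -0.71. Sult2a3, a sulfotransferase, had 1329, 978, 155, 188 and 368 normalised counts in the 5 CR livers, against 3.47, 59.2, 4.01, 80.0 and 0 in the 5 AL livers. Sult2a3 rose (log2 change 5.39, SE 0.96, adjusted p = 0.000203). Since 1 AL library was at 0, the fitted size depends on the value added before the log. Its relative Sult3a2 averaged 29.7 ± 27.8 normalised counts in CR livers and 240.3 ± 141 in AL livers (SD, n = 5 each) and fell (log2 change -3.17, SE 0.68, adjusted p = 0.00168). Cyp2b10 (chromosome 7, 25897620 to 25926624 on the plus strand, GRCm38), a drug-metabolising P450 that the receptor CAR switches on, had 1006, 1279, 416, 853 and 1019 normalised counts in the 5 CR livers, against 11502, 7451, 9585, 11273 and 8989.5 in the 5 AL livers. Cyp2b10 fell with no overlap (log2 change -3.49, SE 0.51, adjusted p = 1.04e-05). Cyp3a44, a female-biased P450, had 114, 414, 282, 117 and 112 normalised counts in the 5 CR livers, against 3069.8, 9143, 2988, 10677 and 5190.3 in the 5 AL livers, and it fell (log2 change -4.93, SE 0.65, adjusted p = 1.96e-06). Cyp3a16 (log2 change -4.90, SE 1.21, adjusted p = 0.00683) and Cyp3a41a (log2 change -3.42, SE 0.99, adjusted p = 0.0202) fell too, with larger errors. Neither Cyp3a16 (adjusted p = 0.246) nor Cyp3a41a (adjusted p = 0.217) passed without the muscle-rich livers. Cyp3a41a also missed it without CR liver 4 (adjusted p = 0.0764) or CR liver 5 (adjusted p = 0.0549). Reads of the near-identical copies in the Cyp3a, Cyp2b, Sult, Serpina1 and Serpina3 families may be shared between them, so the level of any single copy is uncertain.

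Serpina1e (chromosome 12, 103946931 to 103958975 on the minus strand, GRCm38), a male-biased copy of alpha-1 antitrypsin, had 317, 593, 259, 422 and 559 normalised counts in the 5 CR livers, against 9824, 12222, 41086, 11319.9 and 120850 in the 5 AL livers. Serpina1e fell (log2 change -5.82, SE 0.59, adjusted p = 7.58e-09), and the AL livers themselves differed widely. Slco1a1 (chromosome 6, 141907282 to 141946962 on the minus strand, GRCm38), a male-biased transporter of bile acids and steroids, had 63.5, 77.2, 183, 171 and 135 normalised counts in the 5 CR livers, against 1976, 742, 1848, 959 and 4571 in the 5 AL livers. Slco1a1 fell with no overlap (log2 change -3.81, SE 0.53, adjusted p = 5.14e-06). Serpina12, which encodes vaspin, fell (log2 change -2.53, SE 0.44, adjusted p = 0.000159), as did Insc, which encodes a spindle-orienting adaptor (log2 change -2.15, SE 0.22, adjusted p = 1.18e-08), and Sult5a1, a sulfotransferase (log2 change -2.43, SE 0.44, adjusted p = 0.000244). These are male-biased genes measured in females, so their levels here are those of the sex in which they are lower. In the fit without the muscle-rich livers 3 female-biased genes rose and 3 fell, and 5 male-biased genes fell.

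The Mup genes, which encode major urinary proteins, had the lowest median of all lists. Of 21 tested 13 fell, with a median log2 change of -1.67, and 13 also fell without the muscle-rich livers. Mup15 had 503, 132, 245, 20.8 and 234 normalised counts in the 5 CR livers, against 22874, 10539, 3399, 15641 and 6947 in the 5 AL livers. Mup17 had 1278, 414, 608, 165 and 737 normalised counts in the 5 CR livers, against 27758, 18353, 5499, 23068 and 7317 in the 5 AL livers. In both genes all CR livers lay below all AL livers (log2 change -5.99, SE 1.13, adjusted p = 0.000404 for Mup15 and -4.70, SE 0.72, adjusted p = 2.13e-05 for Mup17). Mup22 (chromosome 4, 60817589 to 60821463 on the minus strand, GRCm38) had 133446, 149351, 112127, 92221 and 184583 normalised counts in the 5 CR livers, against 696041, 424868, 467778, 523747 and 414878 in the 5 AL livers, and it fell (log2 change -1.93, SE 0.50, adjusted p = 0.0103). Mup19 (log2 change -3.52, SE 0.80, adjusted p = 0.00319), Mup11 (log2 change -3.12, SE 0.61, adjusted p = 0.00062), Mup18 (log2 change -1.84, SE 0.51, adjusted p = 0.0154) and Mup3 (log2 change -1.64, SE 0.37, adjusted p = 0.00275) fell as well. The Mup copies are near identical, and reads may be split among them, so the level of any single Mup gene is uncertain.

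**Figure D4:**
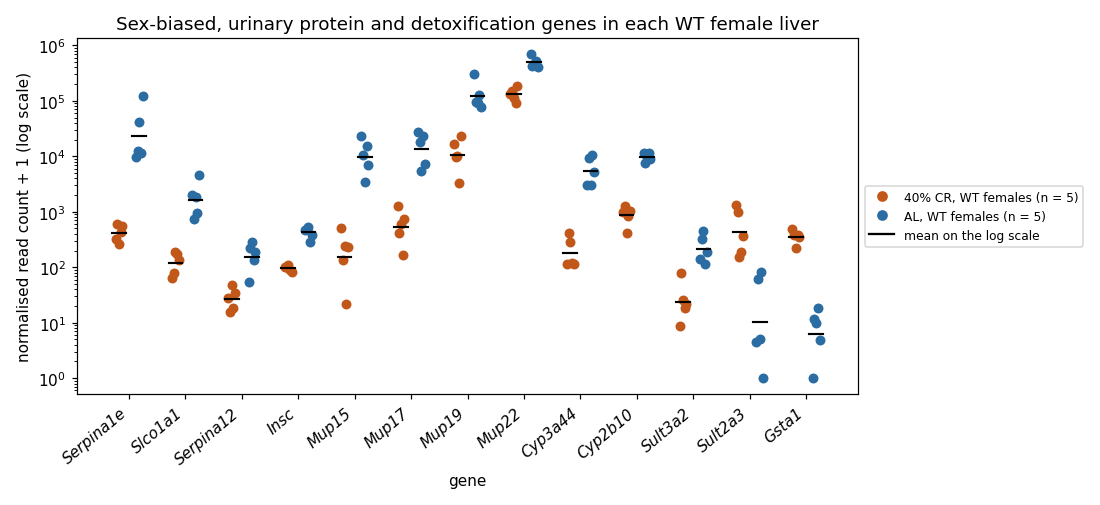
Normalised read count plus 1, on a log axis, of 13 sex-biased, urinary protein and detoxification genes, with 1 point a liver, 5 CR livers left and 5 AL livers right for each gene, and black bars at the means on the log scale. Sult2a3 and Gsta1 are higher in CR livers and the other genes lower, with no overlap between the diets.

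Among 24 genes of bile acid synthesis and transport 5 fell, with a median log2 change of -0.20, and Slco1a1 is one of them. Cyp27a1, which starts the acidic route of bile acid synthesis, averaged 12964 ± 3240.0 normalised counts in CR livers and 21173 ± 2695 in AL livers (SD, n = 5 each) and fell (log2 change -0.74, SE 0.19, adjusted p = 0.0104), but not without CR liver 3 (adjusted p = 0.0517). Without that liver Slco1a1 was the only one of the 24 that fell, and without AL liver 1 or AL liver 3 it was 3 of the 24. Cyp7a1, the rate-limiting enzyme of the classical route, had 4041, 8219, 1665, 4414 and 2495 normalised counts in the 5 CR livers, against 5203, 1686, 1777, 2006 and 2365 in the 5 AL livers. The diets overlapped and it did not pass the test (log2 change 0.61, SE 0.45, adjusted p = 0.427).

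Genes of methionine use fell in part, and a few of the urea cycle and of amino acid breakdown did. Of 19 genes of the methionine and transsulfuration pathways 1 rose and 7 fell, with a median log2 change of -0.38. Suox, the sulfite oxidase, averaged 3699.7 ± 799 normalised counts in CR livers and 6693 ± 670.3 in AL livers (SD, n = 5 each) and fell (log2 change -0.88, SE 0.19, adjusted p = 0.00171). Mat1a, which makes S-adenosylmethionine in liver, averaged 128303 ± 35008 normalised counts in CR livers and 252431 ± 54612 in AL livers (SD, n = 5 each) and fell (log2 change -1.01, SE 0.27, adjusted p = 0.0121). Bhmt, which remethylates homocysteine with betaine, averaged 114173 ± 41173 normalised counts in CR livers and 288058 ± 93605 in AL livers (SD, n = 5 each) and fell (log2 change -1.36, SE 0.37, adjusted p = 0.0146). Without CR liver 3, which had the lowest hepatocyte marker level, Mat1a (adjusted p = 0.0578) and Bhmt (adjusted p = 0.0668) missed the threshold, and 2 of the 19 genes fell. Without AL liver 3, 4 of the 19 fell. Of 12 urea cycle genes 3 fell, with a median of -0.32. Among them were Nags, which makes the activator of the cycle (log2 change -0.56, SE 0.16, adjusted p = 0.0192), and Slc25a15, the ornithine carrier (log2 change -0.78, SE 0.22, adjusted p = 0.0173). Neither passed without CR liver 3 (adjusted p = 0.0822 and 0.0901), and 0 of the 12 fell then. Of 30 genes of amino acid breakdown 3 fell (10%, against 7.11% over all genes), including Kynu, the kynureninase (log2 change -0.83, SE 0.19, adjusted p = 0.00319), and Sdsl, a serine dehydratase-like gene (log2 change -1.13, SE 0.30, adjusted p = 0.0112). Sdsl missed the threshold without AL liver 1 (adjusted p = 0.0529), and 1 of the 30 fell then.

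Of 22 genes of the ATF4 response 2 rose (9.09%) and 2 fell (9.09%), against 4.56% and 7.11% over all genes. Atf5, a stress-induced transcription factor, had 6673, 9008, 6294, 7664 and 7677 normalised counts in the 5 CR livers, against 28741, 20057, 22693, 15867 and 14629 in the 5 AL livers. Atf5 fell with no overlap (log2 change -1.42, SE 0.19, adjusted p = 4.01e-06). Vldlr, the receptor for very-low-density lipoprotein, averaged 1692 ± 672 normalised counts in CR livers and 491 ± 238 in AL livers (SD, n = 5 each) and rose (log2 change 1.84, SE 0.52, adjusted p = 0.0172), but not without AL liver 1 (adjusted p = 0.0537) or CR liver 3 (adjusted p = 0.0589). Of 21 amino acid transporters 1 rose (4.76%, near the 4.56% over all genes) and 3 fell (14.3%, against 7.11% over all genes). The one that rose was Slc38a3, the glutamine transporter of hepatocytes, at 64639 ± 10551 normalised counts in CR livers and 35572 ± 4589 in AL livers (SD, n = 5 each; log2 change 0.85, SE 0.20, adjusted p = 0.00432). Slc6a9, a glycine transporter, averaged 675 ± 88.3 normalised counts in CR livers and 1328 ± 243 in AL livers (SD, n = 5 each) and fell (log2 change -0.97, SE 0.26, adjusted p = 0.0128).

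Genes of protein turnover were lower by small amounts. Of 40 proteasome genes 17 fell, with a median log2 change of -0.30 against 0.02 over all genes. Psmd11, a lid subunit, had 3240.1, 3612, 2959, 3759 and 3735 normalised counts in the 5 CR livers, against 5634, 5196, 6117, 5376 and 5184 in the 5 AL livers. It was 1.59 times lower on the means (log2 change -0.67, SE 0.086, adjusted p = 1.19e-06), with no overlap. Psmd2, a base subunit, averaged 5277 ± 632 normalised counts in CR livers and 7794 ± 639 in AL livers (SD, n = 5 each) and fell (log2 change -0.57, SE 0.084, adjusted p = 1.39e-05), and Psmd14, the deubiquitinase of the lid, averaged 1072 ± 209.7 normalised counts in CR livers and 1755 ± 156 in AL livers (SD, n = 5 each) and fell (log2 change -0.73, SE 0.13, adjusted p = 0.000174). Between 11 and 24 of the 40 fell when 1 liver was left out, fewest without CR liver 3 or AL liver 3, and 9 fell without the muscle-rich livers. Of 26 chaperones of the endoplasmic reticulum 4 fell (15.4%, against 7.11% over all genes), including Dnajb11 (log2 change -0.77, SE 0.15, adjusted p = 0.000586). Of 19 heat shock genes 3 fell (15.8%), including Hsp90ab1, a cytosolic HSP90 (log2 change -0.62, SE 0.16, adjusted p = 0.00783). Adjusted p without the muscle-rich livers was 0.0795 for Dnajb11 and 0.148 for Hsp90ab1. With 1 liver left out, 1 to 5 of the chaperones fell, with 1 without CR liver 3, 4 or 5 or AL liver 2 or 3 and 2 without AL liver 5. Of the heat shock genes 1 to 6 fell, with 1 without CR liver 4 or 5 or AL liver 1, 5 without CR liver 1 or AL liver 4, and 6 without CR liver 2. Genes of the cytosolic ribosome and the respiratory chain are housekeeping sets. None of 76 cytosolic ribosomal protein genes and none of 66 respiratory chain subunit genes passed in limma. Of them 2 ribosomal and 3 respiratory genes had an unadjusted p under 0.05. In edgeR neither set had a call, and in DESeq2 1 ribosomal gene and no respiratory gene passed.

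Plasma protein genes of the acute phase and complement were lower in part. Of 25 acute phase genes 6 fell, with a median log2 change of -0.61, and of 16 complement genes 5 fell, with a median of -0.41. Hp, which encodes haptoglobin, had 82727, 105388, 36562, 57051 and 77256 normalised counts in the 5 CR livers, against 182363, 135250, 187747, 143699 and 143601 in the 5 AL livers. Hp fell (log2 change -1.22, SE 0.32, adjusted p = 0.0117), but not without CR liver 3 (adjusted p = 0.0542). Lbp, the lipopolysaccharide binding protein, averaged 3518 ± 754 normalised counts in CR livers and 6827 ± 215 in AL livers (SD, n = 5 each) and fell (log2 change -0.99, SE 0.24, adjusted p = 0.00491), and C6, a part of the membrane attack complex, averaged 235 ± 120.02 normalised counts in CR livers and 484 ± 68.9 in AL livers (SD, n = 5 each) and fell (log2 change -1.15, SE 0.32, adjusted p = 0.0146). Adjusted p without the muscle-rich livers was 0.269 for Hp, 0.0836 for Lbp and 0.102 for C6. Without CR liver 3 alone 1 acute phase and 1 complement gene fell. The acute phase count was 3 without CR liver 4 or AL liver 2, 3 or 5. The complement count was 1 without CR liver 4 or AL liver 2, 3, 4 or 5, 2 without CR liver 1, and 3 without CR liver 5. Serpina3k, a kallistatin-like serpin that is none of these lists' members, had 80276, 121272, 61643, 79458 and 83353 normalised counts in the 5 CR livers, against 275532, 381545, 465827, 221827 and 367347 in the 5 AL livers. Serpina3k fell with no overlap (log2 change -1.99, SE 0.22, adjusted p = 6.98e-08) and also without the muscle-rich livers (adjusted p = 0.0015). All these are hepatocyte products, and beside them stands the hepatocyte marker level of 13.407 in CR liver 3, against 14.121 to 14.339 in the other CR livers and 14.41 to 14.547 in AL livers, whose part was not tested.

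Interferon-stimulated genes were lower in CR livers in a minority of members. Of 29 interferon and antigen presentation genes 6 fell, with a median log2 change of -0.29. Rsad2, which encodes the antiviral protein viperin, had 159.6, 137, 340.2, 227 and 373 normalised counts in the 5 CR livers, against 1171, 1616, 870.5, 768 and 564 in the 5 AL livers. Rsad2 fell with no overlap (log2 change -2.02, SE 0.33, adjusted p = 5.58e-05). Ifit1, which binds viral RNA, averaged 217 ± 67.3 normalised counts in CR livers and 736 ± 477 in AL livers (SD, n = 5 each) and fell (log2 change -1.62, SE 0.35, adjusted p = 0.00194), and Irgm1, an immunity GTPase, averaged 1629 ± 90.1 normalised counts in CR livers and 2682 ± 555 in AL livers (SD, n = 5 each) and fell (log2 change -0.70, SE 0.15, adjusted p = 0.00206). Without the muscle-rich livers, 4 of the 29 fell, and without AL liver 2 it was 3. Kupffer cell markers, which mark the resident macrophages, had 2 of 14 lower (14.3%, against 7.11% over all genes), with a mean log2 level of 8.369 to 9.87 in CR livers and 9.018 to 9.673 in AL livers. That count was 0 without CR liver 2, 3 or 4 or AL liver 1 or 3, 1 without CR liver 1 or AL liver 2, 4 or 5, and 5 without CR liver 5. The Kupffer share in the interferon result was not tested.

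Of 29 genes of glutathione metabolism and the NRF2 response 3 rose (10.3%) and 4 fell (13.8%), against 4.56% and 7.11% over all genes. Without AL liver 5 only 1 of the 29 rose. Gsta1 (chromosome 9, 78230656 to 78242684 on the plus strand, GRCm38), a glutathione transferase, had 480.4, 373, 220.0, 375 and 348 normalised counts in the 5 CR livers, against 0, 10.5, 9.02, 17.8 and 3.87 in the 5 AL livers. Gsta1 rose (log2 change 5.78, SE 0.87, adjusted p = 1.6e-05). With 1 AL library at 0 the fitted size depends on the value added before the log, and reads may be shared with its near-identical copy Gsta2. Gsr, the glutathione reductase, averaged 1818 ± 313 normalised counts in CR livers and 3091 ± 278 in AL livers (SD, n = 5 each) and fell (log2 change -0.78, SE 0.12, adjusted p = 1.88e-05). Srxn1, the sulfiredoxin, averaged 1198 ± 198 normalised counts in CR livers and 2449 ± 305 in AL livers (SD, n = 5 each) and fell (log2 change -1.04, SE 0.19, adjusted p = 0.000231). Gclc, the rate-limiting enzyme of glutathione synthesis, fell (log2 change -0.95, SE 0.23, adjusted p = 0.00635), but not without the muscle-rich livers (adjusted p = 0.261). Of 16 metal-handling genes 4 fell, including Slc30a10, a manganese exporter, at 1060.2 ± 294 normalised counts in CR livers and 2684 ± 253 in AL livers (SD, n = 5 each; log2 change -1.38, SE 0.20, adjusted p = 1.18e-05), and Hfe, a regulator of iron uptake (log2 change -0.84, SE 0.15, adjusted p = 0.000222).

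Of 20 lysosome genes 5 fell (25%, against 7.11% over all genes) and 1 rose (5%), and 3 fell without CR liver 3 or 4 or AL liver 2 or 4. Without the muscle-rich livers 1 of the 20 fell. Gaa, the acid glucosidase that breaks down glycogen, averaged 2848 ± 95.1 normalised counts in CR livers and 4495 ± 625 in AL livers (SD, n = 5 each) and fell (log2 change -0.65, SE 0.098, adjusted p = 1.84e-05). Lipa, the lysosomal acid lipase, fell (log2 change -0.63, SE 0.14, adjusted p = 0.00382), but not without the muscle-rich livers (adjusted p = 0.102). Mcoln1, a lysosomal calcium channel, averaged 1382 ± 82.7 normalised counts in CR livers and 1031 ± 84.7 in AL livers (SD, n = 5 each) and rose (log2 change 0.42, SE 0.084, adjusted p = 0.000681). Of 28 autophagy genes 2 rose (7.14%) and 2 fell (7.14%), near the 4.56% and 7.11% over all genes. Sqstm1, the cargo receptor p62, fell (log2 change -0.53, SE 0.099, adjusted p = 0.000388), Uvrag rose (log2 change 0.36, SE 0.10, adjusted p = 0.0173), and Ulk1, the kinase that starts autophagy, rose (log2 change 0.51, SE 0.14, adjusted p = 0.0139) except without AL liver 4 (adjusted p = 0.0643). Of 38 cell cycle genes 5 rose (13.2%, against 4.56% over all genes) and 1 fell (2.63%, against 7.11%). Without the muscle-rich livers 1 of the 38 rose and 1 fell. Mcm6, a part of the replicative helicase, averaged 176 ± 11.3 normalised counts in CR livers and 99.5 ± 27.3 in AL livers (SD, n = 5 each) and rose (log2 change 0.86, SE 0.19, adjusted p = 0.00228). Ccne1, which encodes cyclin E1, averaged 27.6 ± 6.40 normalised counts in CR livers and 8.90 ± 4.32 in AL livers (SD, n = 5 each) and rose (log2 change 1.63, SE 0.39, adjusted p = 0.00566), though not without the muscle-rich livers (adjusted p = 0.148). Aurka, a mitotic kinase, averaged 76.7 ± 8.47 normalised counts in CR livers and 148.9 ± 19.2 in AL livers (SD, n = 5 each) and fell (log2 change -0.95, SE 0.13, adjusted p = 3.23e-06).

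Among the genes of no list with the largest changes, Chrna4, a nicotinic acetylcholine receptor subunit, had 53.2, 66.4, 116, 94.2 and 56.2 normalised counts in the 5 CR livers, against 0, 7.64, 7.01, 7.78 and 0.967 in the 5 AL livers. Chrna4 rose (log2 change 4.18, SE 0.80, adjusted p = 0.000475), with 1 AL library at 0. Snai3, a zinc finger repressor, averaged 67.7 ± 53.4 normalised counts in CR livers and 8.38 ± 6.43 in AL livers (SD, n = 5 each) and rose (log2 change 2.85, SE 0.72, adjusted p = 0.00852). Ptgfr, the prostaglandin F receptor, averaged 76.2 ± 13.3 normalised counts in CR livers and 15.8 ± 8.80 in AL livers (SD, n = 5 each) and rose (log2 change 2.36, SE 0.57, adjusted p = 0.00565), but missed the threshold without the muscle-rich livers (adjusted p = 0.1). Loxl4, an enzyme that crosslinks collagen, had 35.2, 22.5, 42.9, 55.3 and 47.3 normalised counts in the 5 CR livers, against 197, 926, 445, 501 and 469 in the 5 AL livers. Loxl4 fell with no overlap (log2 change -3.51, SE 0.35, adjusted p = 7.86e-09), as did Slc34a2, a phosphate transporter, at 18.1 ± 19.2 normalised counts in CR livers and 262 ± 151 in AL livers (SD, n = 5 each; log2 change -4.02, SE 0.56, adjusted p = 5.56e-06).

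The same diet was set beside the response of wild-type males, whose CR and AL livers share no sample with the females. Of the 1608 genes called in females 1004 (62.4%) were also called in males, 999 of them in the same direction. Males had 2961 calls among the 13776 genes tested, and 33.9% of these were also called in females. Of the 1608 female calls 1521 (94.6%) had the same sign of change in males, called or not. That share over all genes tested was not computed. Over all 13776 genes the log2 changes of females and males had a Pearson r of 0.555. A test of the difference between the sexes found 48 genes (0.348%), 20 with a more positive change in females and 28 with a more negative one. At an unadjusted p under 0.05 there were 1547. The count came to 106 without AL female liver 1 and to 23 without the muscle-rich livers of both sexes. Of the 25 clock genes 1 differed by sex. That gene was Clock, which changed by -1.22 in females and by -2.21 in males on the log2 scale (difference in log2 change 0.99, SE 0.17, adjusted p = 0.00106). Dbp changed by 7.06 in females and 6.42 in males, and Arntl by -3.92 in females and -5.86 in males.

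Most of the named genes that differed by sex are sex-biased genes of the liver. Of the 35 female-biased genes tested 11 differed, of the 21 Mup genes 7, and of the 26 male-biased genes 3. Cyp2b9, a female-biased P450, averaged 20423 ± 2556 normalised counts in CR livers and 25401 ± 5211 in AL livers of females, and 7277 ± 3443 in CR males and 17.7 ± 33.3 in AL males (SD, n = 5 each). The log2 change under CR was -0.30 in females and 10.17 in males (difference in log2 change -10.47, SE 1.15, adjusted p = 4.63e-07), and the male size depends on the value added before the log. Cyp2a4, a steroid hydroxylase, changed by -0.72 in females and by 6.46 in males (difference in log2 change -7.17, SE 0.64, adjusted p = 5.62e-09), and Slc22a26, an organic anion transporter, by -1.33 in females and by 2.85 in males (difference in log2 change -4.18, SE 0.73, adjusted p = 0.00144). In these 3 genes the female values did not pass the test, and the CR males stood higher than the AL males.

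Mup7 averaged 465 ± 96.9 normalised counts in CR livers and 1523 ± 464 in AL livers of females, and 20782 ± 15940.5 in CR males and 1386470 ± 182861 in AL males (SD, n = 5 each). It was lower under CR in both sexes, by a wider margin in males (difference in log2 change 4.72, SE 0.79, adjusted p = 0.00106). The difference had the same sign in Mup14 (difference in log2 change 4.52, SE 0.72, adjusted p = 0.000643), Mup21 (difference in log2 change 4.09, SE 0.58, adjusted p = 6.13e-05), Mup1 (difference in log2 change 3.88, SE 0.72, adjusted p = 0.00379) and Mup20 (difference in log2 change 3.27, SE 0.55, adjusted p = 0.00106). In females Mup14 (adjusted p = 0.0117) and Mup1 (adjusted p = 0.035) fell, whereas Mup21 (log2 change -0.61, adjusted p = 0.365) and Mup20 (log2 change -0.21, adjusted p = 0.784) overlapped between the diets and did not pass. Cyp2b10 changed by -3.49 in females and -0.053 in males (difference in log2 change -3.44, SE 0.72, adjusted p = 0.0136). Slco1a1 changed by -3.81 in females and -0.63 in males (difference in log2 change -3.18, SE 0.75, adjusted p = 0.0447), a call that was lost in 15 of 29 alternative fits. Rgs16, a regulator of G protein signals that responds to feeding in liver, averaged 8784 ± 5001 normalised counts in CR livers and 1807 ± 834 in AL livers of females (SD, n = 5 each) and rose (log2 change 2.25, SE 0.55, adjusted p = 0.00584), and its change was larger in males, at 5.87 (difference in log2 change -3.62, SE 0.78, adjusted p = 0.0175).

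**Figure D5:**
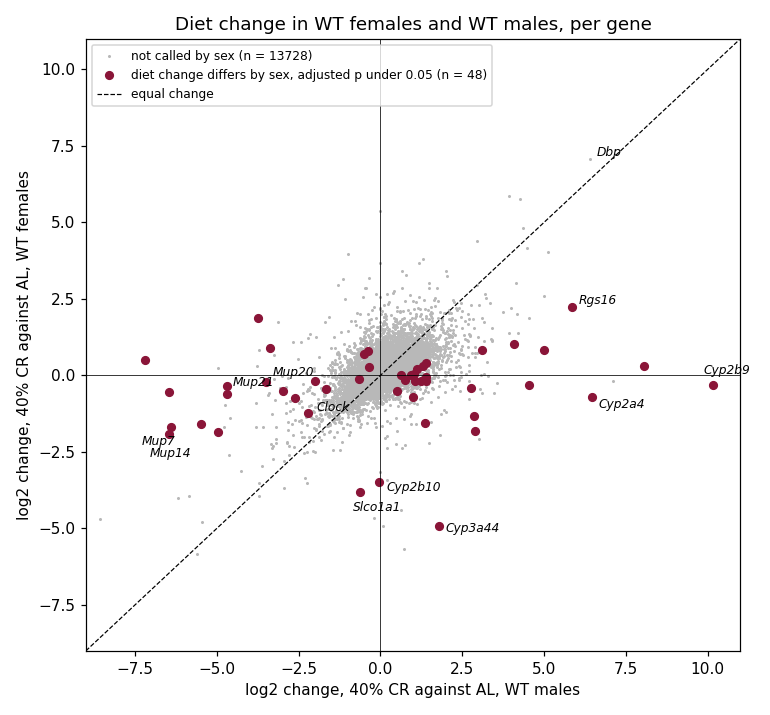
Log2 change under CR of each of 13776 genes in wild-type females, on the vertical axis, against that in wild-type males, on the horizontal axis, with the 48 genes whose change differed by sex in dark red and a dashed line of equal change. Cyp2b9 and Cyp2a4 lie near 0 for females and far right for males, and Mup7 and Mup14 lie further from 0 in males.

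The females with the d3 deletion gave the last comparison. Of the 1608 genes called in wild-type females 838 (52.1%) were also called in d3 females, 837 of them in the same direction. The d3 females had 2461 calls among the 13776 genes tested, and 34.1% of these were also called in wild-type females. Of the 1608 wild-type calls 1523 (94.7%) had the same sign of change in d3 females, called or not. Here too that share over all genes was not computed, and the Pearson r over all genes was 0.554. The log2 change of Dbp under CR was 7.06 in wild-type and 6.51 in d3 females, and that of Arntl was -3.92 in wild-type and -4.27 in d3 females. For Fasn it was 1.79 in wild-type and 1.20 in d3 females. Cyp2b10 changed by -3.49 in wild-type and -2.68 in d3 females, and Gsta1 by 5.78 in wild-type and 4.98 in d3 females. A test of the difference between the genotypes called none of the 13776 genes (0%) in limma or edgeR and 39 in DESeq2. At an unadjusted p under 0.05 there were 1527 in limma. A difference that does not pass at 5 livers a group is not shown to be absent.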

How the data were processed

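Liver RNA was sequenced from 40 mice, of which the 10 wild-type females are described here. The deposited table holds 1 signal value a gene and library, which per the submitters' processing notes came from FastQC, MultiQC, Trimmomatic, kallisto and DESeq2 on GRCm38, with no versions given. Each deposited signal value is a read number divided by 1 factor a library. Whole reads were recovered for 100% of values (tolerance 0.01), and those counts, the authors' reads, served edgeR and DESeq2. Whether counting used the strand is not stated.

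Of 17839 rows 115 were identical copies and were dropped. Testing covered the 13776 genes whose mean over 40 libraries was 10 or more, on log2(value + 1) with limma 3.58.1 in R 4.3.3, with 8 groups in 1 model, an intensity trend and Benjamini-Hochberg adjustment over all genes. The threshold was 0.05. Every adjusted p is limma's, 2-sided, unless another tool is named. Depth limits low genes most. Alternatives were a pseudocount of 10, no filter, another scaling, the compared groups alone, library weights, livers left out, a muscle covariate, edgeR 4.0.16 and DESeq2 1.42.0. The scripts were tested on simulated counts.

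The groups and gene lists were chosen with earlier results of these data known. Named genes follow a rule: up to 15 non-overlapping called genes with the largest change each way and a mean of at least 50 in the higher group, up to 10 called genes of at least 2-fold with the highest means, for each list no more than 6 called members and 3 uncalled ones, Ghr, and up to 8 genes each way for each interaction. Genes of that rule that are not named enter the counts of their lists, and many of them were left out after it was seen that their calls depended on 1 liver. Cry1, Cry2, Bhlhe40 and Cyp7a1 were named after their values were seen. Predicted genes were counted and not named, and some other genes are not reported here. Promoter windows came from the RefSeq table of GRCm38.p6, and gene positions from the GENCODE annotation of GRCm38.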

Additional observations from a re-analysis of the deposited data

Results flagged for a closer look

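Among 236 groups of 5 livers examined (named genes and marker levels, by diet), 18 (7.63%) had a highest or lowest liver far from the other 4, by Dixon's ratio of the gap to the range. Chance gives about 1 in 20 groups. These groups reuse the same livers, and many genes whose calls depended on 1 liver had been left out. Setting the share beside that rate is therefore not a test. CR liver 3 gave 8 of them and AL liver 1 gave 5. CR liver 3 was the lowest CR liver for G6pc at 3137, Ghr at 8956, Nags at 1269.6, Gsr at 1279 and Lipa at 4475 normalised counts, and the highest for Vldlr at 2876. It also had the lowest hepatocyte marker level of its group, a mean log2 level of 13.407, and the highest adipocyte level, 8.281. AL liver 1 was the lowest AL liver for Srebf1 at 988 and Ghr at 7040.3 normalised counts, and the highest for Plin5 at 7741, Gys2 at 5661 and G6pc at 32269.5. CR liver 1 was the highest CR liver for Srebf1 at 10423. CR liver 5 was the highest CR liver for Mup3 at 32798 and Hfe at 216. AL liver 5 was the lowest AL liver for Suox at 5557 and had the highest adipocyte level of its group, 6.238.

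The diet change differed between females and males in limma's test of the difference for 12 named genes. The log2 change in females minus that in males was 4.72 for Mup7, 4.52 for Mup14, 4.09 for Mup21, 3.88 for Mup1, 3.27 for Mup20 and 0.99 for Clock. It was -10.47 for Cyp2b9, -7.17 for Cyp2a4, -4.18 for Slc22a26, -3.62 for Rgs16, -3.44 for Cyp2b10 and -3.18 for Slco1a1.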

How the results depend on the processing

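The number of genes called in wild-type females was 1608. It was 978 with these groups fitted alone, 2674 with library weights, 557 without the muscle-rich livers, and 979 without CR liver 3 and AL liver 5 together, an alternative chosen after seeing the data. Leaving out 1 liver gave 1098 to 1651. DESeq2 gave 1977 and edgeR 1573, with 1494 of the genes called by edgeR shared with limma. Genes differing by sex numbered 48, against 329 with library weights, 23 without the muscle-rich libraries, 97 with the muscle covariate, 159 with DESeq2 and 37 to 106 with 1 liver left out, the highest without AL female liver 1. Genes differing by genotype numbered 0, against 2 with library weights and 39 with DESeq2, and 0 in each fit with 1 liver left out. The causes were not tested.

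Of the named genes called in wild-type females, 91 passed in all 10 fits with 1 liver left out, 71 passed in all 20 alternatives and 37 missed the threshold in at least 1, and none changed direction. Genes whose calls depended on 1 liver were mostly not named, so these counts overstate the stability of all 1608. Srebf1, Tsku and Cux2 did not pass in edgeR. Of 12 named genes that differed by sex, 9 passed in all 29 alternatives. The log2 change of Ghr, which was not called, ran from -0.242 to 0.064 with 1 liver left out and turned positive without the muscle-rich libraries (0.23) and without CR liver 3 and AL liver 5 (0.15). No paired analysis was possible because replicate numbers were assigned by record order and link no mice.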
